A study of Homo sapiens with 14 samples.

Results

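Growth factor receptor tyrosine kinases are described here by the RNA of 10 genes, EGFR, ERBB2, ERBB3, ERBB4, MET, AXL, IGF1R, FGFR1, FGFR2 and PDGFRA, among the 62757 genes counted in each library. The genes were taken by name and matched by Ensembl identifier, with no threshold on a measured value. RNA was sequenced from 14 libraries of 2 human ovarian cancer cell lines, in 7 groups of 2 libraries. OVCAR3 and A2780 were each present as parental cells (labelled WT) and as cells labelled DDP, an abbreviation of cisplatin, for the resistant derivative. In 3 further groups, also labelled OVCAR3-DDP, cells carried a short hairpin RNA: shNC, taken here as the control hairpin, or sh1 or sh2, both against ADAR1, the RNA editing enzyme encoded by ADAR. All 3 hairpin groups thus share the resistant label of origin, including their control. Whether a derivative was 1 clone, its cisplatin exposure and the vector of the hairpins are not given in the labels. The labels do not state whether replicates came from separate cultures. The p-values therefore cover the spread between these libraries alone, which may be technical.

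Receptor tyrosine kinases are single-pass membrane proteins that bind a growth factor outside the cell, pair up and phosphorylate each other inside it. The phosphorylated tails recruit adaptors that feed the RAS and ERK cascade and the PI3K and AKT pathway, and feedback regulators such as the Sprouty proteins and dual-specificity phosphatases dampen the signal. EGFR, ERBB2, ERBB3 and ERBB4 form 1 family, MET binds hepatocyte growth factor, AXL binds GAS6, IGF1R binds the insulin-like growth factors, the FGFRs bind fibroblast growth factors, and PDGFRA binds platelet-derived growth factors. In ovarian carcinoma these receptors are studied as drivers of growth and invasion and as drug targets.

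Between 20428538 and 49115255 reads of each library fell on genes, and levels are given as CPM, a gene's count scaled to a fixed total of such reads. ADAR stood at 447 and 399 CPM with shNC, at 289 and 254 CPM with sh1 and at 116 and 114 CPM with sh2, so the hairpin libraries matched their labels. The libraries labelled OVCAR3-DDP without a hairpin stood apart from those labelled OVCAR3-DDP with shNC: 16860 of 24193 genes tested differed. The summed level of 13 ovarian carcinoma epithelial markers was 3861 to 4232 CPM in parental OVCAR3 and 4675 to 4983 CPM with shNC, against 544 to 579 CPM in the pair labelled OVCAR3-DDP and 199 to 308 CPM in the 4 A2780 libraries. A list of 10 neural and embryonic kidney line markers summed to 63.4 to 76.8 CPM in parental OVCAR3, with 7 genes at 0. It summed to 667 to 683 CPM in the pair labelled OVCAR3-DDP, with none at 0, and to 399 to 473 CPM with shNC. ENO2 made up most of the sum in parental OVCAR3 (mean 68.4 CPM) and with shNC (427 CPM). It was at 50.2 CPM in the pair labelled OVCAR3-DDP, where KIF1A, EN2 and DLL1 were at 214, 181 and 121 CPM. With shNC KIF1A, EN2 and DLL1 were at 1.86, 0.172 and 0.302 CPM. Only ENO2 and INA had higher means with shNC than in that pair. The epithelial markers WT1 and WFDC2 were at 0 in both parental OVCAR3 libraries, while 10 of the 13 reached 1 CPM. In parental A2780, MUC16, WT1 and KRT7 were at 0 and 4 of the 13 reached 1 CPM. Markers of blood cells and of endothelium summed to at most 5.28 and 3.03 CPM in any library. In bulk RNA, fewer cells of a kind and less RNA per cell cannot be told apart. The library labels of OVCAR3-DDP are therefore kept as labels below. Each OVCAR3 result for the 10 receptors is given with the shNC libraries beside it, and so are part of the results for other genes.

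The sequences before the start sites of AXL, EGFR, MET and FGFR2 are shown because the first 3 fell together in the libraries labelled OVCAR3-DDP while FGFR2 rose there. Each is the 250 bases before a RefSeq start (GRCh38.p14), 5′ to 3′ on the gene's strand, and capitals mark matches to 5 searched motifs on either strand. The windows lie at chr19:41218973-41219222 on the plus strand, chr7:55018767-55019016 on the plus strand, chr7:116671946-116672195 on the plus strand and chr10:121598445-121598694 on the minus strand.
AXL: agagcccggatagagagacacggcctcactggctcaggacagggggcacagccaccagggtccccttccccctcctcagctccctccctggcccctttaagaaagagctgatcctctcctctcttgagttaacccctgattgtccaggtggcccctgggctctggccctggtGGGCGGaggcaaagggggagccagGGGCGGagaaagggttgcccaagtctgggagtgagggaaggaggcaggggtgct
EGFR: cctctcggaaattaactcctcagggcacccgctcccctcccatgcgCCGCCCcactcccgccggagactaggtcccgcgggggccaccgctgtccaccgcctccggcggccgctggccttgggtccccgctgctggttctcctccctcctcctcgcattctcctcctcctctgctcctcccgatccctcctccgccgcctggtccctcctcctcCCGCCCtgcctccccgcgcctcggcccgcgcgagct
MET: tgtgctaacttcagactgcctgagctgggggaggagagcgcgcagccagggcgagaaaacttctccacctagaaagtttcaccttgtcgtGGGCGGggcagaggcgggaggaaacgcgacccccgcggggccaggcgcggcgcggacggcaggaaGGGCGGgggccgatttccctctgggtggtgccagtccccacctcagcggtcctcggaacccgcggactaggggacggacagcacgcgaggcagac
FGFR2: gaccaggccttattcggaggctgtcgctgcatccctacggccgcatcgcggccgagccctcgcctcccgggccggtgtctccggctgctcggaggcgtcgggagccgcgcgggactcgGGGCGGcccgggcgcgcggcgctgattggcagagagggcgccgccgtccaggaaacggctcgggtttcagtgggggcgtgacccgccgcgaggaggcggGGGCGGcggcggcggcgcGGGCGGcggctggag

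Every capital run in these 4 windows is a GC box, the letters GGGCGG or their reverse complement, bound by SP-family factors. AXL, EGFR and MET had 2 each and FGFR2 had 3, and 42.6% of 35116 windows of the same length held at least 1. None of the 4 held the AP-1 letters TGANTCA (6.57% of windows), the TEAD core GGAATG (11.9%), TATAAA (10.7%) or the ETS core CCGGAA (14.5%). Windows were found for 8 of the 10 genes. In the other 4, IGF1R held 2 GC boxes, ERBB4 a GC box and an ETS core, ERBB2 an AP-1 match and 2 ETS cores, and PDGFRA an AP-1 match alone. No base lay in 2 motifs. AXL was poor in CpG, with 4 such pairs, whereas EGFR had 25, MET 24, FGFR2 42 and IGF1R 48, against a median of 11 over all windows. Receptors that changed in opposite directions thus carried the same searched letters, which are a description and not binding sites.

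**Figure D1:**
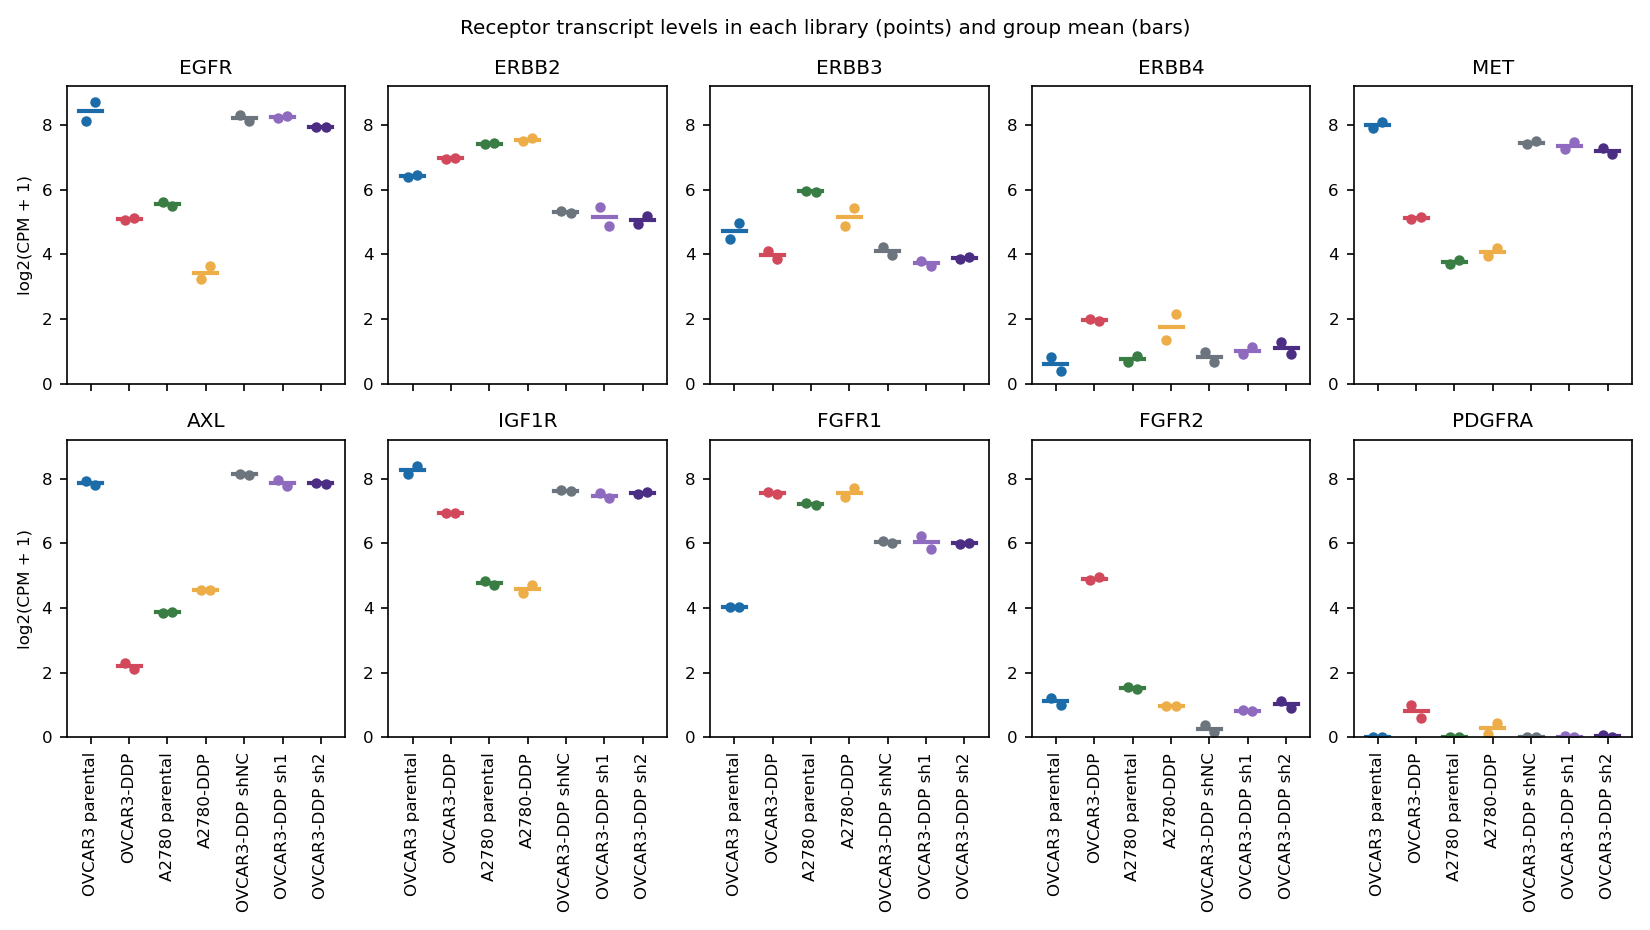
Level of each receptor as log2(CPM + 1), with 1 panel per gene, 1 point per library and a bar at the mean of the 2 libraries of each of 7 groups. EGFR, MET, AXL and IGF1R stand high in parental OVCAR3 and in all 6 hairpin libraries, and FGFR2 stands high in the libraries labelled OVCAR3-DDP alone.

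The receptors made up a different set in each background when levels were compared per length, as counts per kilobase of exon scaled to a fixed sum over genes (TPM). In parental OVCAR3 AXL held the largest share of the summed TPM of the 10 genes, 34.9% and 28.5% in the 2 libraries. MET followed with 25.1% in each, then EGFR with 16.5% and 22% and IGF1R with 14.9% and 15.9%. The 6 hairpin libraries had the same leading gene, with AXL at 37.8% to 42.9%. In the libraries labelled OVCAR3-DDP FGFR1 led with 28.5% and 27.5%, ERBB2 held 24.6% and 25.4%, and AXL held 1.57% and 1.35%. ERBB2 led in all 4 A2780 libraries, at 36.8% to 41.6%, with FGFR1 next at 23.6% to 31.0%. The sum over the 10 receptors was 449.9 and 526 TPM in parental OVCAR3, 166 and 163 TPM in the libraries labelled OVCAR3-DDP, 136 to 162 TPM in A2780 and 375 to 452 TPM with the hairpins. OVCAR3 and its hairpin libraries thus carried more receptor RNA per length than the other groups, in every library.

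**Figure D2:**
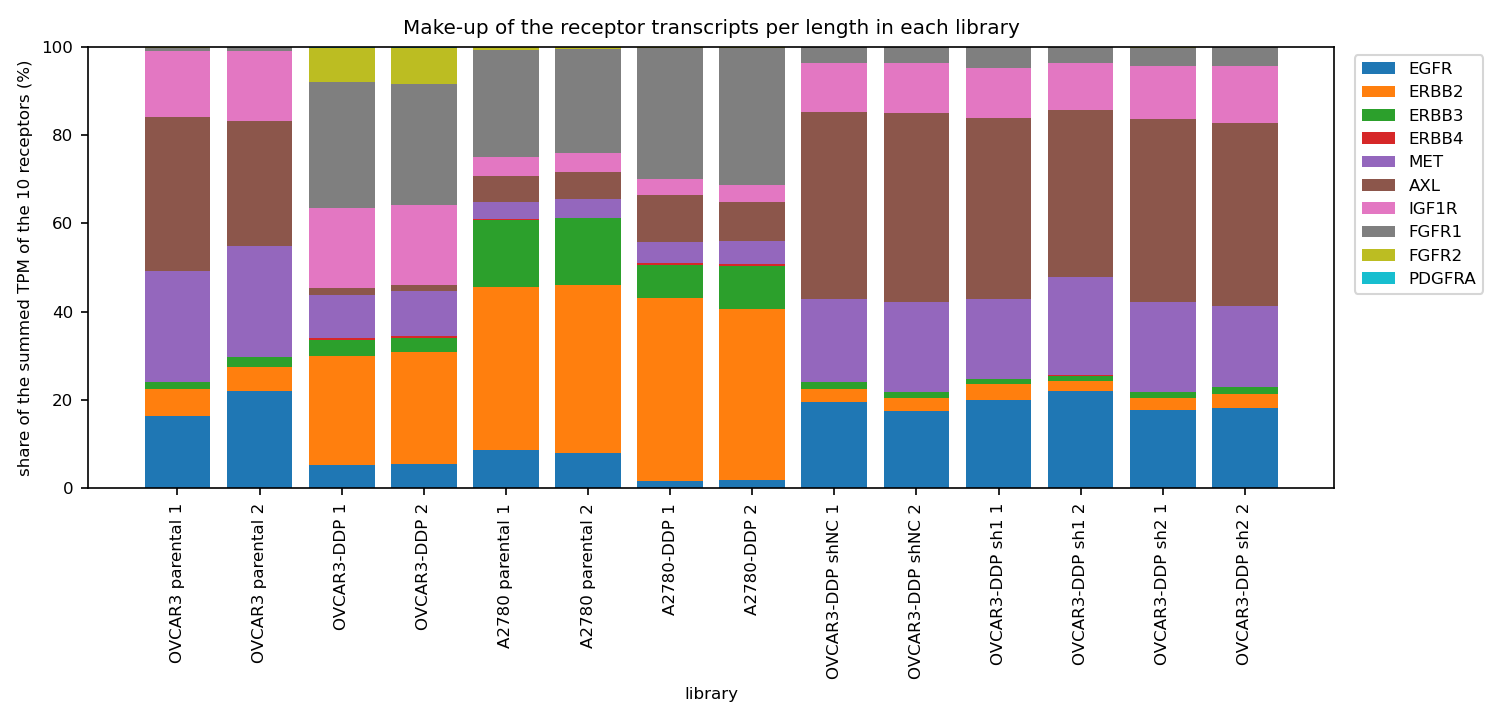
Share of each receptor in the summed TPM of the 10 genes, 1 stacked bar per library, from 0 to 100%. AXL, MET, EGFR and IGF1R fill most of each parental OVCAR3 and hairpin bar, and ERBB2 and FGFR1 fill most of each A2780 bar.

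The 2 parental lines differed first. Of the 10 receptors 8 differed between parental OVCAR3 and parental A2780 in edgeR's quasi-likelihood test (Benjamini-Hochberg adjusted p under 0.05), 4 higher and 4 lower, where 66% of the 23031 genes tested were called, 32.3% higher and 33.7% lower. MET was at 239 and 269 CPM in OVCAR3 and at 11.96 and 13.3 CPM in A2780 (log2 difference 4.38, SE 0.12, edgeR adjusted p = 4.72e-12). AXL, IGF1R and EGFR were also higher in OVCAR3, by 4.14, 3.60 and 2.96 on the log2 scale. FGFR1 was the reverse, 15.4 and 15.5 CPM in OVCAR3 against 149.6 and 143 CPM in A2780, a log2 difference of -3.19 (SE 0.11). ERBB3 and ERBB2 were lower in OVCAR3 by -1.19 and -0.97 on that scale. FGFR2, near 1 to 2 CPM in both, was called at -0.65 with an edgeR adjusted p = 0.0208, and this call was lost without parental OVCAR3 replicate 2 (0.181) or either parental A2780 replicate (0.0805 and 0.0501), and under 4 other settings (0.0519 to 0.127). ERBB4 did not pass, and PDGFRA had no count in either parental line, below a floor of 3 counts over each group.

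All 10 receptors differed between the libraries labelled OVCAR3-DDP and parental OVCAR3, 5 higher and 5 lower. In that comparison 68.5% of all genes tested were called, 33.4% higher and 35.2% lower, so the count alone says little about receptors. The sizes ranged from a log2 difference of -6.18 to at least a 21.8-fold rise.

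EGFR (chr7:55019021-55211628, plus strand; GRCh38, GENCODE 29), the receptor of EGF, TGF-alpha and amphiregulin, was at 278 and 418 CPM in parental OVCAR3 and at 32.4 and 33.6 CPM in the pair labelled OVCAR3-DDP. The parental pair differed widely from each other (348 ± 98.7 CPM, SD, n = 2), yet both lay far above the other pair. EGFR fell by 3.58 on the log2 scale (SE 0.18, edgeR adjusted p = 9.54e-10). With shNC it was at 316 and 274 CPM, which overlapped the parental range (log2 difference -0.05, SE 0.14, edgeR adjusted p = 0.808). The sign of that small difference turned under other scalings and without parental OVCAR3 replicate 2. The antisense gene EGFR-AS1 reached 13.6 CPM, and whether counting used strand is not stated in the sources used here.

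MET (chr7:116672390-116798386, plus strand), the receptor of hepatocyte growth factor, was at 239 and 269 CPM in parental OVCAR3 and at 33.2 and 34.3 CPM in the pair labelled OVCAR3-DDP. It fell by 3.09 on the log2 scale (SE 0.11, edgeR adjusted p = 5.64e-11). AXL (chr19:41219203-41261766, plus strand), the GAS6 receptor, went from 243 and 223 CPM to 3.91 and 3.34 CPM. This was the widest drop among the 10, 6.18 on the log2 scale (SE 0.13, edgeR adjusted p = 5.79e-13). With shNC, MET was at 170.2 and 178 CPM and AXL at 282 and 276 CPM. MET was then lower than in parental cells by -0.35 (edgeR adjusted p = 0.0116) and AXL higher by 0.45 (edgeR adjusted p = 0.000991) on the log2 scale. The MET call was lost without parental OVCAR3 replicate 2 (0.0801), without shNC replicate 1 (0.103) and with upper-quartile scaling (0.0517). An unnamed antisense gene at the AXL locus reached 15.5 CPM.

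IGF1R (chr15:98648539-98964530, plus strand), the receptor of the insulin-like growth factors, was at 281 and 336 CPM in parental OVCAR3 and at 122 and 122 CPM in the pair labelled OVCAR3-DDP. It fell by 1.52 on the log2 scale (SE 0.11, edgeR adjusted p = 3.55e-08). ERBB3 (chr12:56076799-56103505, plus strand), a neuregulin receptor with a weak kinase, fell from 21.2 and 30.4 CPM to 16.2 and 13.5 CPM, a log2 difference of -0.98 (SE 0.19). With shNC, IGF1R was at 197 and 195 CPM, between the 2 other OVCAR3 groups, and below parental cells by -0.46 on the log2 scale (edgeR adjusted p = 0.0011). ERBB3 was at 17.8 and 14.7 CPM with shNC, -0.48 against parental cells (edgeR adjusted p = 0.0237). That ERBB3 call was lost without parental OVCAR3 replicate 2 (0.373), without shNC replicate 2 (0.185) and under 5 other settings (0.0544 to 0.0675).

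FGFR1 (chromosome 8), a fibroblast growth factor receptor, was at 15.4 and 15.5 CPM in parental OVCAR3 and at 190.4 and 183 CPM in the pair labelled OVCAR3-DDP. It rose by 3.42 on the log2 scale (SE 0.11, edgeR adjusted p = 1.41e-11). FGFR2 (chr10:121478334-121598458, minus strand) rose from 1.34 and 0.998 CPM to 28.3 and 29.8 CPM, by 4.47 (SE 0.20, edgeR adjusted p = 3.73e-10). With shNC the 2 parted. FGFR1 was at 65.6 and 64.0 CPM, above parental cells by 2.26 (SE 0.13, edgeR adjusted p = 6.52e-13), whereas FGFR2 was at 0.295 and 0.131 CPM, 7 and 3 counts, and below parental cells by -2.22 (SE 0.42, edgeR adjusted p = 9.92e-05). FGFR1 was therefore higher than in parental OVCAR3 in both groups of that resistant label, while FGFR2 took opposite signs.

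ERBB2 (chr17:39687914-39730426, plus strand), the ERBB receptor with no known ligand of its own, was at 82.5 and 85.6 CPM in parental OVCAR3 and at 122 and 126 CPM in the pair labelled OVCAR3-DDP. It rose by 0.38 on the log2 scale (SE 0.09, edgeR adjusted p = 0.0014). With shNC it was at 39.5 and 37.6 CPM, lower than in parental cells by -0.93 (edgeR adjusted p = 4.98e-06), so its sign also turned between the 2 groups. Genes that overlap ERBB2, namely MIEN1, PGAP3 and MIR4728, reached 47.3 CPM, and overlapping reads could not be assigned here. ERBB4 (chr2:211375717-212538841, minus strand), a neuregulin receptor, stayed low, rising from 0.781 and 0.326 CPM to 2.98 and 2.82 CPM (log2 difference 2.25, SE 0.46). With shNC it was at 0.971 and 0.609 CPM, 37 counts in all, and did not pass against parental cells (edgeR adjusted p = 0.233). PDGFRA (chr4:54229097-54298247, plus strand), a receptor typical of mesenchymal cells, had no count in parental OVCAR3 and 35 and 18 counts in the libraries labelled OVCAR3-DDP. It was at least 21.8-fold higher there, against a floor of 3 counts over the parental group, and had no count with shNC.

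**Figure D3:**
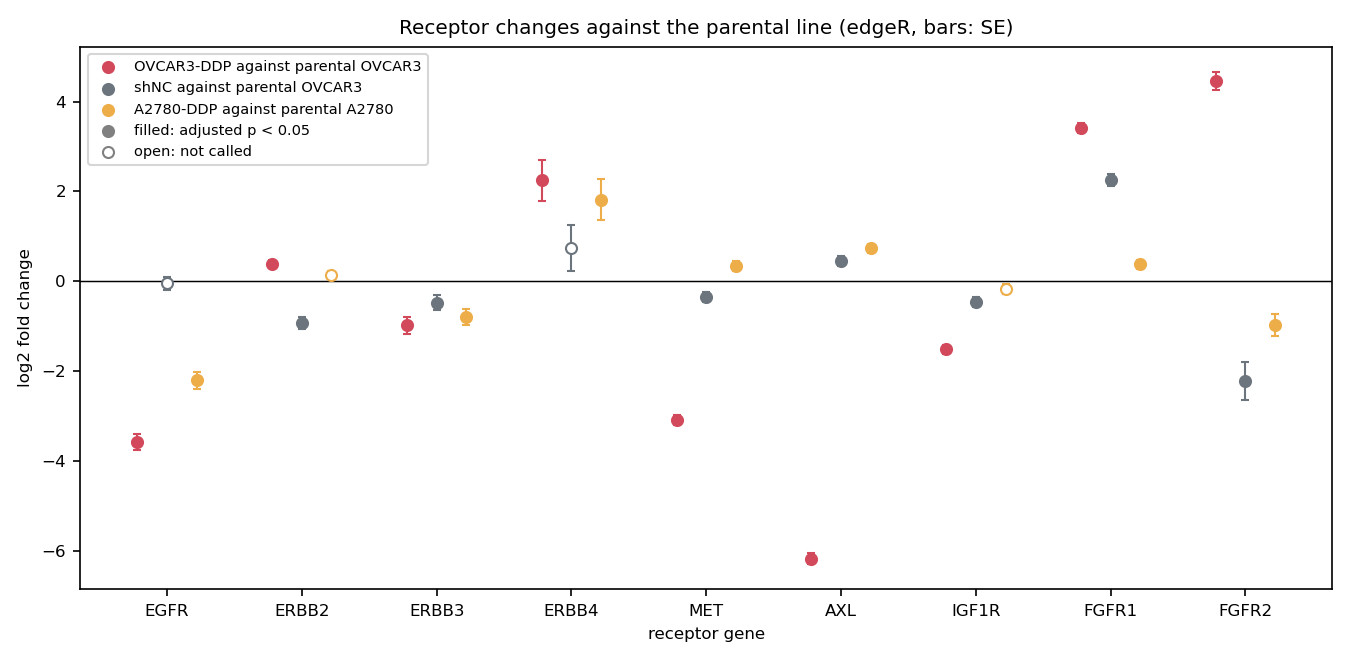
Log2 fold change of 9 receptors against the parental line of the same name, with SE bars, in the libraries labelled OVCAR3-DDP, in shNC (both against parental OVCAR3) and in A2780-DDP (against parental A2780). PDGFRA is left out because its parental groups had no count. AXL, EGFR and MET lie far below 0 in the first comparison and between -0.35 and 0.45 in the second.

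Against the libraries labelled OVCAR3-DDP, shNC again differed in all 10 receptors, where 69.7% of the 24193 genes tested were called, 32.9% higher and 36.8% lower. AXL was higher with shNC by 6.56, EGFR by 3.45, MET by 2.66 and IGF1R by 0.98 on the log2 scale, and FGFR2 was lower by -6.77. FGFR1, ERBB2 and ERBB4 were lower with shNC by -1.24, -1.39 and -1.58, and PDGFRA had no count with shNC. The call for ERBB3, 0.42 with an edgeR adjusted p = 0.0385, was lost without OVCAR3-DDP replicate 2 (0.260), without shNC replicate 1 (0.266) and with limma-voom (0.0878). Against parental OVCAR3, shNC differed in 7 of 10 receptors, 2 higher and 5 lower, beside 51.5% of the genes tested, 25.1% higher and 26.5% lower. These comparisons share libraries. The hairpin libraries also had fewer reads on genes, 20428538 to 23746370 against 31195174 to 49115255 in those without a hairpin. Their reads without a unique alignment were 4.64% to 4.99% against 2.36% to 3.22%. Their mitochondrial share was 1.26% to 1.53% against 2.74% to 4.25%. Against parental OVCAR3, the hairpin vector, these library differences and the resistant label cannot be told apart. Against the pair labelled OVCAR3-DDP, which shares that label, the hairpin vector, these library differences and whatever else sets the pair apart cannot be told apart.

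In A2780, 8 of 10 receptors differed between A2780-DDP and parental cells, 5 higher and 3 lower, where 35.3% of all genes tested were called, 18% higher and 17.3% lower. EGFR was at 48.5 and 43.7 CPM in parental A2780 and at 8.43 and 11.4 CPM in A2780-DDP. It fell by 2.21 on the log2 scale (SE 0.18, edgeR adjusted p = 6.71e-07) and held its call in every alternative run. ERBB3 was at 61.7 and 60.1 CPM and then at 28.2 and 41.8 CPM (log2 difference -0.79, SE 0.18, edgeR adjusted p = 0.00375), a call that was lost without A2780-DDP replicate 1 (0.0553). FGFR2 fell from 1.96 and 1.80 CPM to 0.956 and 0.945 CPM, by 0.97 on the log2 scale.

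AXL rose in A2780-DDP, from 13.4 and 13.9 CPM to 22.6 and 22.3 CPM (log2 difference 0.73, SE 0.11, edgeR adjusted p = 0.000128). FGFR1 was at 149.6 and 143 CPM in parental A2780 and at 172 and 206 CPM in A2780-DDP, a log2 difference of 0.38 (edgeR adjusted p = 0.00806). MET went from 11.96 and 13.3 CPM to 14.5 and 17.4 CPM, by 0.34 (edgeR adjusted p = 0.0381). The replicates of parental A2780 and A2780-DDP did not overlap for any receptor, including ERBB2 and IGF1R, which did not pass. This trait therefore does not set the called receptors apart, and its share over all genes was not counted. ERBB4 rose by 1.82 (SE 0.46, edgeR adjusted p = 0.00767) from 0.609 and 0.795 CPM to 1.57 and 3.41 CPM. PDGFRA had no count in parental A2780 and 3 and 12 counts in A2780-DDP, at least 4.75-fold more over the group. ERBB2, at 169 and 172 CPM and then 179 and 192 CPM, did not pass (log2 difference 0.13, SE 0.09, edgeR adjusted p = 0.253), nor did IGF1R, at 27.4 and 25.1 CPM and then 21.0 and 25.0 CPM (-0.18, SE 0.11, edgeR adjusted p = 0.249).

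Several of the A2780 calls rested on single libraries. Without parental A2780 replicate 1 or without A2780-DDP replicate 2, 5 of the 10 receptors were called. MET then had adjusted p-values of 0.205 and 0.140, ERBB4 0.0555 and 0.0796, and PDGFRA 0.0993 and 0.143. PDGFRA was also lost without parental A2780 replicate 2 (0.0978), and MET with limma-voom (0.0973) and with only the 2 groups in the fit (0.0737). The fibroblast markers summed to 552 to 578 CPM in parental A2780 and to 625 to 648 CPM in A2780-DDP. Most of that sum was COL3A1, at means of 468 and then 595 CPM. COL1A2 fell from 61.55 to 7.91 CPM, COL1A1 from 23.9 to 19.3 CPM and PDGFRB from 1.00 to 0.704 CPM. The rest of the list, DCN, LUM, THY1 and FAP, had higher means in A2780-DDP. The part of these markers in the PDGFRA counts was not tested.

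The resistant-to-parental difference itself differed between the lines for 6 of 10 receptors, 2 higher and 4 lower in OVCAR3, where 53.8% of genes were called in that interaction test, 26.9% higher and 26.9% lower. AXL fell in the libraries labelled OVCAR3-DDP and rose in A2780-DDP, a difference of -6.91 (SE 0.16, edgeR adjusted p = 3.73e-12). MET showed the same opposition, -3.43 (SE 0.16), though its rise in A2780-DDP was 0.34 and lost its call under several alternatives. FGFR2 moved the other way round, 5.44 (SE 0.31). EGFR fell and FGFR1 rose in both lines, more in OVCAR3, with differences of -1.37 (SE 0.24) and 3.04 (SE 0.14). IGF1R differed by -1.34 (SE 0.16). ERBB2, ERBB3 and ERBB4 did not pass, though ERBB2 passed with upper-quartile scaling (0.36, edgeR adjusted p = 0.0234) and at a mean of at least 5 CPM (0.34, 0.0179). PDGFRA, with no count in either parental line, gave no difference. An alternative added after seeing the data put shNC in place of the libraries labelled OVCAR3-DDP, with all 14 libraries in the fit. EGFR then passed with the opposite sign (2.14, SE 0.20): it fell in A2780-DDP and did not pass in shNC against parental OVCAR3. ERBB2 passed at -1.09, MET at -0.72 and FGFR1 at 1.85, while AXL (-0.31, edgeR adjusted p = 0.129), IGF1R (-0.31, 0.137) and FGFR2 (-1.28, 0.058) did not.

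The order of levels over the 7 groups summarises these receptors. EGFR stood highest in parental OVCAR3 (348 ± 98.7 CPM, SD, n = 2), and the range of its 2 libraries overlapped that of sh1 (301 ± 8.22), which overlapped shNC (295 ± 29.4). Then came sh2 (243 ± 0.913), parental A2780 (46.1 ± 3.41), the libraries labelled OVCAR3-DDP (33.0 ± 0.819) and A2780-DDP (9.92 ± 2.10), with no overlap between neighbours. For AXL the order was shNC (279 ± 4.16), sh1 (233 ± 21.8), parental OVCAR3 (233 ± 14.2) and sh2 (231 ± 3.05), of which the last 3 overlapped, then A2780-DDP (22.5 ± 0.226), parental A2780 (13.6 ± 0.295) and the libraries labelled OVCAR3-DDP (3.62 ± 0.403). FGFR1 was highest in A2780-DDP (189 ± 24.5) and in the libraries labelled OVCAR3-DDP (187 ± 5.13), which overlapped, and lowest in parental OVCAR3 (15.4 ± 0.0872). The highest group mean was 4.997 times the lowest for ERBB3, 5.24 times for ERBB4, 5.74 times for ERBB2, 12.2 times for FGFR1 and 13.4 times for IGF1R. The ratio was 20.1 for MET, 35.1 for EGFR, 76.9 for AXL and 136.5 for FGFR2, whose lowest group had 10 counts. FGFR2 reached 10 CPM in 1 group, and ERBB4 and PDGFRA in none.

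The ligands of these receptors were counted from a list of 34 genes. In the libraries labelled OVCAR3-DDP 28 could be tested, and 9 were higher and 15 lower, with a median log2 difference of -1.07 beside -0.03 over all genes, of which 33.4% were higher and 35.2% lower. NRG1, a ligand of ERBB3 and ERBB4, fell by 7.99 on the log2 scale, from 17.1 ± 0.056 CPM to 0.0724 ± 0.0614 CPM (SD, n = 2 per group). NRG2, another neuregulin, had no count in parental OVCAR3 and 10.1 ± 0.658 CPM in the other group, at least 285-fold more. GAS6, the ligand of AXL, went from 39.4 ± 3.16 to 103 ± 4.20 CPM (log2 difference 1.21, SE 0.10), opposite to its receptor. FGF2, a broad FGFR ligand, went from 168 ± 10.9 to 25.4 ± 1.61 CPM (-2.90, SE 0.10), opposite to FGFR1 and FGFR2. AREG and TGFA, ligands of EGFR, fell with it, by 3.87 and 2.88. IGF2 rose by 5.73 to 5.13 ± 0.0316 CPM and PDGFA by 1.79 to 51.6 ± 3.60 CPM. With shNC against parental OVCAR3, 7 of 28 ligands were higher and 6 lower (median 0.02), beside 25.1% and 26.5% of all genes. AREG rose there by 1.94. Mean levels with shNC were 7.62 CPM for NRG1, 0.406 for NRG2, 33.65 for GAS6 and 121.7 for FGF2. TGFA was at 14.76 CPM, IGF2 at 0.621 and PDGFA at 28.38 with shNC.

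HGF, the ligand of MET, was at 126 and 125 CPM in parental A2780 and at 114 and 117 CPM in A2780-DDP (log2 difference -0.11, edgeR adjusted p = 0.385), and it had no count in any of the 8 libraries of parental OVCAR3 and the hairpins, where MET was at 137 to 269 CPM. The pair labelled OVCAR3-DDP was low in both, with 3 and 4 counts of HGF and MET at 33.2 and 34.3 CPM. In A2780-DDP 13 of 28 ligands tested were higher and 5 lower, with a median of 1.19 beside 0 over all genes, of which 18% were higher and 17.3% lower. FGF20 had 0 and 2 counts in parental A2780 and 39.0 ± 3.29 CPM in A2780-DDP. HBEGF, an EGFR ligand, rose by 2.54 from 3.72 ± 0.406 to 21.5 ± 0.577 CPM, and PDGFC by 2.07 to 82.4 ± 5.31 CPM. EGF, another EGFR ligand, fell by 7.39, from 18.1 ± 0.164 to 0.103 ± 0.0594 CPM, in the direction of its receptor. NRG1 and NRG2 rose by 1.11 and 1.27 while ERBB3 fell.

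**Figure D4:**
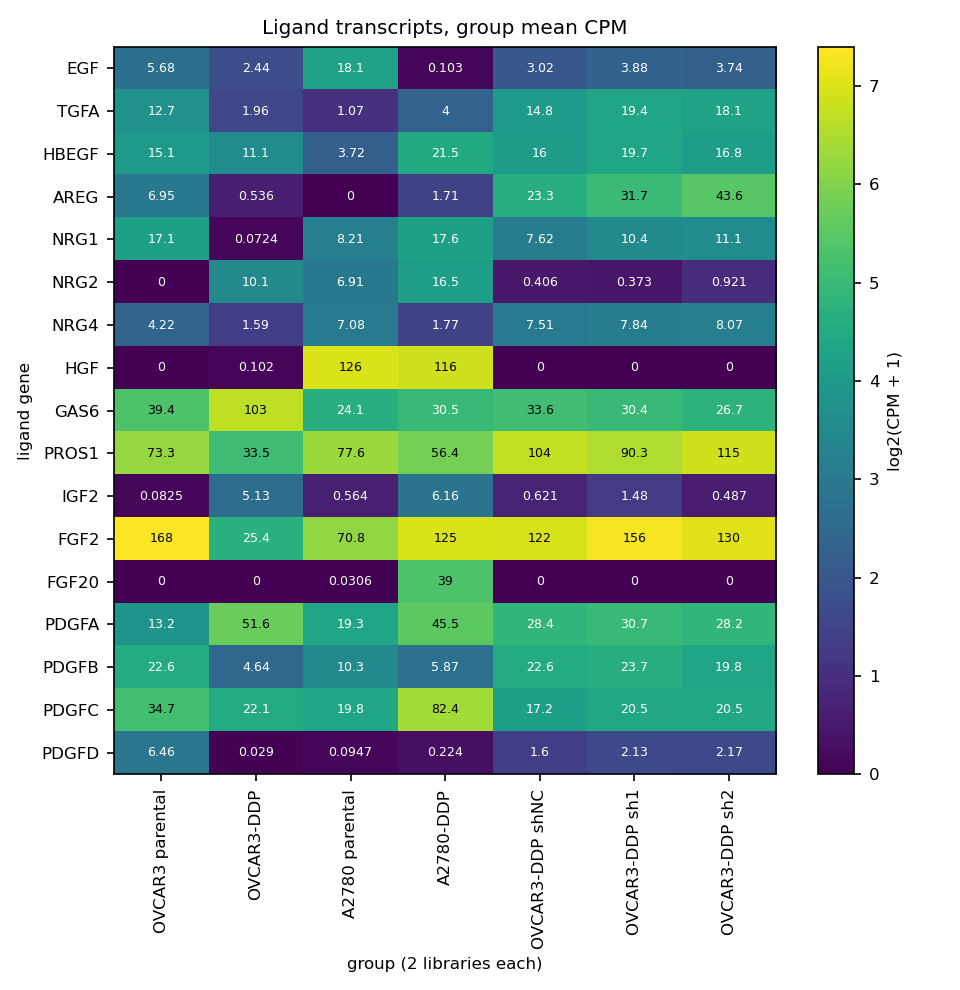
Mean CPM of the 17 ligand genes, of 34 listed, that reached 5 CPM in at least 1 group, printed in each cell and coloured by log2(CPM + 1), with groups of 2 libraries in columns. HGF is bright in the A2780 columns only, and FGF20 in A2780-DDP only.

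Among 43 other receptor tyrosine kinases, 36 were tested in the parental and DDP libraries. In the libraries labelled OVCAR3-DDP 25 were higher and 5 lower (median 2.26), beside 33.4% higher and 35.2% lower over all genes. KIT, the stem cell factor receptor, went from no count to 32.5 ± 2.46 CPM, at least 920-fold more, and FLT4, a VEGF receptor, from 0.0102 to 78.3 ± 2.52 CPM. MST1R, the MET relative that binds macrophage-stimulating protein, fell by 9.18 from 91.0 ± 11.1 to 0.174 ± 0.0413 CPM. In A2780-DDP 19 were higher and 2 lower (median 0.85), beside 18% higher and 17.3% lower over all genes. EPHA7, an ephrin receptor, rose by 2.28 to 163 ± 8.46 CPM there, and DDR2, a collagen receptor, fell by 6.88, from 565 ± 38.6 to 4.78 ± 0.444 CPM. With shNC against parental OVCAR3, 13 of 37 were higher and 5 lower (median 0.31), beside 25.1% and 26.5% of all genes. MST1R rose there by 0.48.

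Of 39 adaptors and kinases downstream, 17 were higher and 13 lower in the pair labelled OVCAR3-DDP (median 0.11), 76.9% of the list beside 68.5% of all genes. IRS4, a docking protein of the insulin and IGF receptors, went from 0.0102 ± 0.0144 to 433 ± 26.1 CPM, and IRS2, its relative, fell by 2.89 to 38.1 ± 0.894 CPM, beside the fall of IGF1R. GRB7, which binds ERBB receptors, fell by 5.32 there, rose by 4.15 in A2780-DDP and rose by 2.06 with shNC. In A2780-DDP 9 of the 39 were higher and 7 lower (median 0.01), beside 18% and 17.3% of all genes. IRS1 was among the lower and fell by 2.53. With shNC 16 were higher and 11 lower against parental OVCAR3 (median 0.20), beside 25.1% and 26.5% of all genes. GAB2 was up by 1.95.

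Negative regulators dampen receptor signals, and ERK target genes are transcribed when the cascade is active. In the libraries labelled OVCAR3-DDP 12 of 35 regulators were higher and 18 lower (median -0.26), with SPRY1 and SPRY2 up by 3.34 and 2.44 and DUSP6 and DUSP4 down by -4.71 and -3.47. Of 16 ERK target genes 3 were higher and 11 lower there (median -2.25), and the ETS factors ETV4 and ETV5 fell by 6.94 and 6.61. Over all genes 33.4% were higher and 35.2% lower in that comparison. In A2780-DDP 9 of 35 regulators were higher and 8 lower (median -0.01), and 7 of 16 ERK targets were higher and 4 lower (median 0.17). Over all genes 18% were higher and 17.3% lower in A2780-DDP. DUSP6, a phosphatase of ERK, rose by 0.94 to 959.8 ± 5.36 CPM in A2780-DDP, and EGR1 rose by 1.75. With shNC 18 of 35 regulators were higher and 8 lower against parental OVCAR3 (median 0.32), and 9 of 16 ERK targets were higher and 5 lower (median 0.53). Over all genes 25.1% were higher and 26.5% lower with shNC. DUSP5 rose by 4.26 to 189.6 ± 8.59 CPM and ERRFI1, an inhibitor of EGFR, by 3.74 to 276 ± 7.66 CPM, while EGFR itself did not pass. DUSP4 and DUSP6 had means of 171.5 and 20.67 CPM with shNC, against 85.46 and 7.419 CPM in parental OVCAR3. ETV4 and ETV5 were at 206.6 and 48.66 CPM with shNC, against 113.5 and 34.1 CPM in parental OVCAR3. The falls of DUSP4, DUSP6, ETV4 and ETV5 in the pair labelled OVCAR3-DDP were thus not seen with shNC. SPRY2 was higher than in parental OVCAR3 with shNC too, at 21.29 against 8.861 CPM. DUSP4, DUSP6, SPRY2, SPRY4 and SPRED1 stand in both the regulator list and the ERK target list.

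The next question was whether the receptors moved with knockdown of ADAR1. The mean of sh1 and sh2 differed from shNC in 2 of the 9 receptors tested, 1 higher and 1 lower, where 11.9% of 19044 genes were called, 5.94% higher and 5.98% lower. AXL was at 282 and 276 CPM with shNC, at 248 and 218 CPM with sh1 and at 233 and 229 CPM with sh2. All 4 knockdown libraries lay below both controls, as they also did for ERBB3 and IGF1R, which did not pass. The share of all genes without overlap was not counted. AXL fell by 0.36 on the log2 scale (SE 0.09, edgeR adjusted p = 0.0187). FGFR2 was at 0.295 and 0.131 CPM with shNC, at 0.800 and 0.753 CPM with sh1 and at 1.17 and 0.889 CPM with sh2, and it rose by 1.95 (SE 0.59, edgeR adjusted p = 0.0367) from 10 counts over both controls. The other 7 tested did not pass. EGFR was at 295 and 307 CPM with sh1 and 242 and 244 CPM with sh2, and MET at 150.2 and 176 CPM and then 155 and 137 CPM. IGF1R lay between 166 and 189.8 CPM in the 4 knockdown libraries, FGFR1 between 55.8 and 74.5 CPM, ERBB2 between 28.1 and 42.8 CPM, ERBB3 between 11.4 and 14.2 CPM and ERBB4 between 0.884 and 1.42 CPM. PDGFRA had 1 count in 1 library of each hairpin and none in the others, and was not tested.

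Taken alone, sh1 gave no call in the 9 receptors (3 at an unadjusted p under 0.05, and 1 with DESeq2's Wald test, AXL) beside 3.81% of all genes (1.96% higher, 1.85% lower). Without sh1 replicate 1, ERBB3, FGFR1, IGF1R, ERBB2 and AXL passed for sh1, all lower, and without sh1 replicate 2 MET did. FGFR2 passed for sh1 with all 14 libraries in the fit (edgeR adjusted p = 0.041). sh2, with the lower ADAR level, gave 4 calls beside 14.3% of all genes (7.23% higher, 7.04% lower): EGFR at -0.39 (edgeR adjusted p = 0.0213), AXL at -0.38 (0.0259), MET at -0.36 (0.0455) and FGFR2 at 2.13 (0.0306). sh2 and sh1 did not differ from each other in any receptor in edgeR's test (1 at an unadjusted p under 0.05, EGFR, which was also called by DESeq2's Wald test) beside 1.92% of all genes (0.667% higher, 1.25% lower). Without sh1 replicate 2, FGFR1 (edgeR adjusted p = 0.0445), ERBB2 (0.00779) and EGFR (0.00674) were lower with sh2 than with sh1, and without sh1 replicate 1 EGFR was (0.0121). No sh2 call was held when any shNC or sh2 library was left out, and MET was lost with the replicate number as a block (edgeR adjusted p = 0.0637). For the mean of both hairpins, the number of receptors called was 0 without any single shNC or sh2 library, 5 without sh1 replicate 2 and 8 without sh1 replicate 1.

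**Figure D5:**
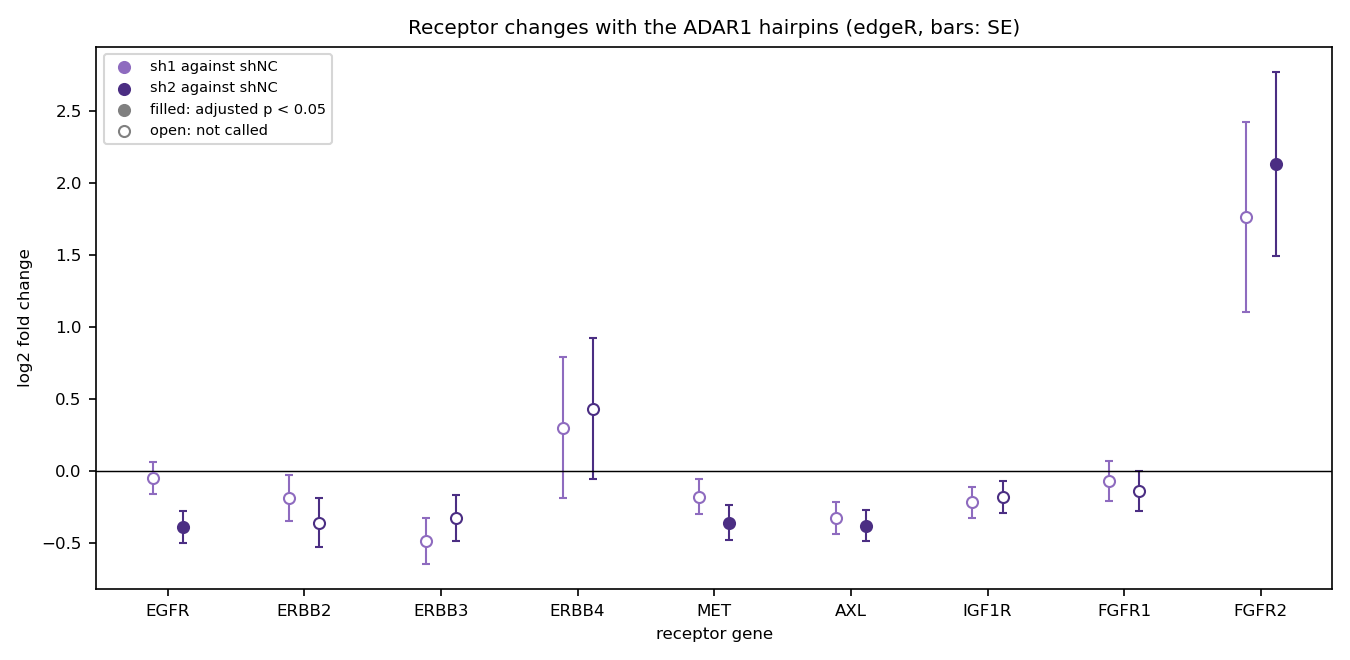
Log2 fold change of 9 receptors with sh1 and with sh2 against shNC, with SE bars; filled points passed. FGFR2 stands near 2 from a very low level, and every other value lies between -0.49 and 0.43.

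Around the receptors, the hairpins changed 1 of 19 ligands tested, AREG, which rose by 0.58 from 23.3 ± 3.47 CPM (SD, n = 2) to 37.6 ± 7.39 CPM (n = 4). Of 26 other receptor tyrosine kinases 0 were higher and 2 lower, MST1R among them by -0.57. Of 38 adaptors and kinases 3 were higher and 3 lower, with PIK3R1 up by 0.72 and AKT2 down by -0.49. Of 35 negative regulators 4 were higher, such as SPRY4 (0.63), and 3 lower, such as FGFRL1 (-0.65). Of 15 ERK target genes 4 were higher and 0 lower. Over all genes 5.94% were higher and 5.98% lower with the hairpins. The medians of these lists lay between -0.05 and 0.16, beside 0 over all genes. These counts rested on single libraries. Without sh1 replicate 1 they rose to 7 ligands, 11 other receptor kinases, 17 adaptors and kinases, 14 regulators and 8 ERK targets, and without sh1 replicate 2 to 2, 4, 13, 8 and 7. Without shNC replicate 1 they were 0, 0, 1, 1 and 0, without shNC replicate 2 they were 1, 0, 0, 1 and 0, without sh2 replicate 1 they were 1, 1, 1, 1 and 0, and without sh2 replicate 2 they were 1, 2, 4, 5 and 3.

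Across the 14 libraries, the genes whose log2(CPM + 1) was most like that of a receptor were found among 11762 protein-coding genes. Pearson's r is given as a description over 14 libraries that fall into 7 pairs and share lines and depths. EGFR was most like PXN (0.991) and RETSAT (0.988), MET like PDE2A (0.997) and PDK4 (0.995), AXL like SLC16A6 (0.994) and AIFM2 (0.992), and IGF1R like SNX19 (0.995) and FBN2 (0.994). FGFR1 was most like RRAGD (0.987) and FGFR2 like STON1 (0.981). ERBB2 was most like VARS1 (0.992) and ERBB3 like POGZ (0.967).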

How the data were processed

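RNA was sequenced from 14 libraries. The authors deposited whole-number counts per gene, with 62757 genes in each file. Per the submitters' processing notes the tools were FastQC 0.11.9, STAR 2.7.8a, SAMtools and HTSeq 2.0.3, with genome GRCh38.p13. Which annotation release and strand setting were used, and whether reads were paired, is not given in the sources used here. Summary lines that name no gene stayed out of library sizes: 48.7% to 50.0% of reads lay on no gene and 2.09% to 2.48% were ambiguous. Shared reads between near-identical or overlapping genes are not resolved by such counting.

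From the counts, edgeR 4.0.16 (R 4.3.3) was fitted with TMM scaling, a minimum count of 10 and quasi-likelihood tests, with Benjamini-Hochberg adjustment over all genes tested. The 8 libraries without a hairpin, the 6 with one and all 14 (for shNC against OVCAR3 groups) were fitted separately. DESeq2 1.42.0, limma 3.58.1 (voom), other scalings and filters, a block for the replicate number and fits without 1 library were alternatives. TPM used exon lengths of GENCODE 29, and promoter windows came from RefSeq (GRCh38.p14). On simulated counts with 200 changed genes, 2-fold changes were recovered at 97.5% for OVCAR3-DDP (21880 genes), 98% for A2780-DDP (21881), 76.5% for the difference between lines (21868) and 100% for the mean of the hairpins (18603). At 1.5-fold the shares were 61% (21895 genes), 51.5% (21898), 2% (21888) and 76.5% (18614). The changed genes were drawn from those with a mean of at least 5 CPM. ERBB4 and PDGFRA are therefore not covered, nor is FGFR2 in the hairpin groups. Unchanged genes had the same mean in all groups, unlike these data, where 68.5% of genes were called for OVCAR3-DDP. The simulation also gave each gene 1 spread for all groups, while the replicates of some groups lay further apart. Between 2 replicates, a chi-square of the counts averaged 31.5 per gene in parental OVCAR3, 21.1 in sh1 and 18 in A2780-DDP. In the other groups it averaged 3.88 to 5.01. The shares may thus be too high for these data. With 2 libraries a group, the number of replicates limits the precision.

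The receptors and gene lists were chosen with earlier results of these data known. The rule for named genes takes all 10 receptors, of which the text prints a part in some comparisons. List genes are named from up to 3 higher and 3 lower genes of largest log2 change that passed, reached 5 CPM and had replicates that did not overlap; GAS6, FGF2, TGFA, HGF, SPRED1 and, for A2780-DDP, PDGFC, NRG1 and NRG2 fall outside that rule and were named after their values were seen. The shNC levels of DUSP4, DUSP6, SPRY2, ETV4 and ETV5 also fall outside that rule and were added after their values were seen. Likeness names the 2 protein-coding genes with the highest r among those reaching 10 CPM.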

Additional observations from a re-analysis of the deposited data

Results flagged for a closer look

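The change from parental cells to cells labelled DDP differed between OVCAR3 and A2780 in 6 receptors by a test of the difference itself (edgeR's interaction contrast, 2 libraries in each of 4 groups). On the log2 scale, as OVCAR3 minus A2780, the difference was -6.91 for AXL (SE 0.16, edgeR adjusted p = 3.73e-12), -3.43 for MET (SE 0.16, 1.47e-09), -1.37 for EGFR (SE 0.24, 0.000298), -1.34 for IGF1R (SE 0.16, 8.05e-06), 3.04 for FGFR1 (SE 0.14, 1.42e-09) and 5.44 for FGFR2 (SE 0.31, 8.46e-09). AXL, MET and FGFR2 changed in opposite directions in the 2 lines, in every library. The A2780 part was small for MET (0.34, edgeR adjusted p = 0.0381). That MET call was lost with limma-voom (0.0973), with only the 2 groups in the fit (0.0737) and without some single libraries. FGFR2 was low in A2780, at means of 1.88 CPM in parental cells and 0.951 CPM in A2780-DDP. These values rest on the libraries labelled OVCAR3-DDP. With shNC in their place AXL, IGF1R and FGFR2 did not pass (-0.31, -0.31 and -1.28), MET and FGFR1 kept their sign at -0.72 and 1.85, and EGFR took the other sign at 2.14.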

How the results depend on the processing

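All 10 receptor calls for the libraries labelled OVCAR3-DDP against parental OVCAR3 kept their direction and their side of the threshold in the 128 alternative fits of single receptors. Over all comparisons 1117 such fits did so, 60 lost a call, 27 gained one and 24 changed sign. None of these fits asked for a 2-fold change. With that asked as well, ERBB2 (0.38) and ERBB3 (-0.98) lose their calls in OVCAR3-DDP against parental OVCAR3. Counts limit ERBB4, FGFR2 and PDGFRA most. The requirement of a mean of at least 5 CPM leaves ERBB4 and PDGFRA out of every fit, and FGFR2 out of the fit of the hairpin libraries.

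A further requirement of a 2-fold change left 10055 genes and 16 adaptors in OVCAR3-DDP. In A2780-DDP it left 3507 genes, 3 receptors, 13 other receptor kinases, 9 adaptors, 6 negative regulators and 5 ERK targets. Between the parental lines it left 9464 genes. For the mean of the hairpins it left 150 genes and 1 receptor, and 0 ligands, other receptor kinases, adaptors, regulators and ERK targets in edgeR's test, of which 5, 7, 16, 10 and 8 had an unadjusted p under 0.05 with no fold asked. It left 83 genes for sh1, 266 genes and 1 receptor for sh2, 55 genes for sh2 against sh1, and 6682 genes, 2 receptors, 10 adaptors and 11 regulators for shNC against parental OVCAR3. The mean of at least 5 CPM gave 10267 genes and 11 ligands in OVCAR3-DDP, 11 ligands in A2780-DDP, 9989 genes between the parental lines, 1 receptor and 10 adaptors for the hairpins, 10 other receptor kinases for shNC against parental OVCAR3 and 10343 genes for shNC against OVCAR3-DDP. The first setting can only remove calls, and the second leaves fewer genes to test; the rise in adaptors was not traced.

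For the hairpins, DESeq2's Wald test and limma-voom each called 1 receptor, DESeq2 called 11 adaptors, and 4 other receptor kinases were called without the low-count filter. For sh1, DESeq2 called 1 receptor, the fit on all 14 libraries called 1, and the fit on only the compared groups called 445 genes. That last fit called 5874 genes for sh2 and 192 for sh2 against sh1. For sh2 against sh1, 690 genes were called without the filter, and DESeq2 called 646 genes and 1 receptor. The cause was not tested.

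Leaving out 1 library at a time gave the following ranges, where a group left with 1 library is assumed to vary like the others. For OVCAR3-DDP 13809 to 15656 genes, 10 receptors, 22 to 25 ligands, 28 to 31 other receptor kinases, 24 to 28 adaptors, 23 to 31 regulators and 13 to 15 ERK targets were called. For A2780-DDP these were 5429 to 7349, 5 to 7, 15 to 17, 16 to 23, 11 to 19, 12 to 17 and 8 to 11. For the mean of the hairpins they were 327 to 6318, 0 to 8, 0 to 7, 0 to 11, 0 to 17, 1 to 14 and 0 to 8. For shNC against parental OVCAR3 they were 10038 to 11301, 5 to 8, 10 to 14, 15 to 17, 22 to 27, 21 to 25 and 11 to 14. Genes and receptors were 10707 to 12575 and 6 for the difference between lines, 13406 to 14961 and 7 to 8 between parental lines, 89 to 4512 and 0 to 5 for sh1, 303 to 1386 and 0 for sh2, 58 to 4286 and 0 to 3 for sh2 against sh1, and 15003 to 15126 and 9 to 10 for shNC against OVCAR3-DDP.

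Signs turned mostly for log2 values that had not passed. Leaving out 1 library, the difference between lines ran from -0.40 (without A2780-DDP replicate 1) to 0.08 (without parental OVCAR3 replicate 2) and 0.12 (without A2780-DDP replicate 2) for ERBB3, and from -0.13 to 1.18 (without parental OVCAR3 replicates 2 and 1 in turn) for ERBB4. With shNC in place of OVCAR3-DDP, chosen after seeing the data, FGFR2 (-1.28) and EGFR (2.14), which had passed, turned, as did ERBB3 (0.29), ERBB2 (-1.09) and ERBB4 (-1.10). Between parental lines ERBB4 ran from -1.06 to 0.21, the latter without parental OVCAR3 replicate 2. For sh1, FGFR1 ran from -0.32 to 0.13 and ERBB2 from -0.56 to 0.08, the upper ends without sh1 replicate 2, and EGFR ran from -0.13 to 0.04, the latter without shNC replicate 1. For sh2 against sh1, FGFR1 ran from -0.27 to 0.17, ERBB2 from -0.43 to 0.20 and AXL from -0.14 to 0.07, the upper ends without sh1 replicate 1. There IGF1R ran from -0.05 (without sh1 replicate 2) to 0.15, and ERBB4 from -0.24 (without sh2 replicate 1) to 0.44, with -0.05 without sh1 replicate 1. For shNC against parental OVCAR3, EGFR became 0.02 with DESeq2's size factors and with its Wald test and 0.04 with upper-quartile scaling and at a mean of at least 5 CPM. Leaving out 1 library, it ran from -0.30 (without parental OVCAR3 replicate 1) to 0.25 (without replicate 2), with 0.03 without shNC replicate 2.

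The labels do not say that replicate numbers pair the libraries. Deviations of same-numbered libraries correlated at -0.0569 for OVCAR3 and -0.153 for A2780 between parental and DDP, and at -0.144 between sh1 and sh2. Over the 21 pairs of groups the highest was 0.336, between parental OVCAR3 and A2780-DDP. With the replicate number as a block, 10 receptors were called in OVCAR3-DDP, 8 in A2780-DDP, 6 for the difference between lines, 8 between parental lines, 2 for the mean of the hairpins, 0 for sh1, 3 for sh2, 7 for shNC against parental OVCAR3 and 10 against OVCAR3-DDP. The block changed 1 receptor call, MET in sh2 (edgeR adjusted p = 0.0637). Crossing the numbers, chosen after seeing the data, gave 7 receptor calls and 7427 genes in A2780-DDP, and 0 receptors and 646 genes for sh2 against sh1.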
